A study of Mus musculus with 6 samples.

Results

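The F-box proteins and cullins are the substrate receptors and scaffolds of cullin-RING ubiquitin ligases. They were taken as the protein-coding mouse genes whose symbols begin with Fbxw, Fbxl, Fbxo or Cul and a digit, together with Skp1a, Skp2, Rbx1 and Btrc, with 1 gene left out. This gave 88 genes of the 55414 in each count table, namely 78 F-box genes, 8 cullins, and Skp1a and Rbx1. RNA sequencing of adult mouse pancreatic acinar cells covered 3 control and 3 Trip12 knockout preparations, each 1 library of untreated cells. The controls carried a Cre transgene driven by Pdx1 and 2 intact Trip12 alleles (Pdx1Cre;Trip12+/+), and the knockouts carried the same transgene with Trip12 flanked by loxP sites (Pdx1Cre;Trip12fl/fl). All 6 libraries therefore come from carriers of the same Cre, and the Pdx1 promoter is active in the progenitors of duct and islet cells as well as of acinar cells. TRIP12 is itself a ubiquitin ligase, of the HECT class rather than the cullin-RING class.

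In a cullin-RING ligase, a cullin holds a RING protein such as RBX1 at one end, which brings the charged ubiquitin-conjugating enzyme. At the other end it holds an adapter with a substrate receptor. CUL1 uses the adapter SKP1 and an F-box protein, a combination called SCF, and each F-box protein selects its own targets through WD40 repeats (Fbxw), leucine-rich repeats (Fbxl) or another domain (Fbxo). CUL3 binds BTB proteins, CUL4A and CUL4B bind DDB1, and CUL2 and CUL5 bind elongins. Ligation of NEDD8 switches cullins on, and the COP9 signalosome removes it again.

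The libraries held 31019500 to 34041901 gene counts. Levels are given as CPM, counts scaled to library size by TMM factors, which correct for the digestive enzymes that took 80.9% to 83.6% of the counts in control and 77.5% to 78.0% in knockout. Values given 3 in a row are replicates 1, 2 and 3. Reads placed in several positions also set the groups apart, at 26.0% to 28.4% of reads in control and 21.6% to 24.1% in knockout, as did reads outside genes, at 0.893% to 1.32% and 1.90% to 2.18%. Trip12 itself read 29.01, 22.3 and 26.4 CPM in its controls and 14.4, 14.7 and 12.98 CPM in its knockouts, or 54.1% of the control mean, with no overlap (log2 fold change -0.89, SE 0.14, adjusted p 0.0256 in edgeR). The call was lost with library totals (adjusted p 0.125), with sex as a covariate (0.0941) and when any library but control replicate 1 was left out (0.0676 to 0.140). Counts over a whole gene do not show which exons are missing. The 12 acinar markers summed to 507099 to 684870 CPM in control and 419216 to 430155 CPM in knockout, and none was at 0. Markers of other cells were present in both groups and overlapped between them: 11 leukocyte markers summed to 24.7 to 160 CPM in control and 23.8 to 112 CPM in knockout, 9 stromal and endothelial markers to 28.4 to 122 and 35.0 to 141 CPM, and 9 islet markers to 356 to 464 and 245 to 911 CPM. The 8 duct markers summed to 202 to 243 CPM in control and 189 to 283 CPM in knockout, and 4 adipocyte markers to 3.41 to 8.85 and 4.57 to 17.2 CPM, with Adipoq and Lep at 0 in all 6 libraries. No marker on these lists was called, meaning an adjusted p under 0.05, in edgeR's test. With the replicate number of the labels as a block, 3.40% of all tested genes were called higher and 2.58% lower. Of the 12 acinar markers, 1 was called higher and 3 lower. In that fit 3 of 10 tested leukocyte, 1 of 9 islet and the 1 tested adipocyte marker were called higher, and of 8 duct markers 3 were called higher and 2 lower. Single duct markers had groups apart in 5 of 8 cases, 2 higher and 3 lower, and acinar markers in 7 of 12, 1 higher and 6 lower, where 22.9% of all tested genes did. Leukocyte and stromal sums were highest in control replicate 1, knockout replicate 1 and knockout replicate 3. Xist counts of 2118 and 2440 in control replicates 2 and 3, against at most 5 elsewhere, place the female libraries in the control group only, so sex and genotype cannot be fully told apart. The part of these differences in the results that follow was not tested, except that sex was entered as a covariate.

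Of the 88 genes, 64 had enough counts to be tested and 24 did not. One family accounts for most of the silent ones. Fbxw genes numbered 13 to 28 that lie on chromosome 9 are 14 related genes in the annotation, and 13 of them had no count in any of the 6 libraries. The 14th, Fbxw24, had 1 count in 1 library. A count of 0 allows up to 3 counts, or 0.0804 to 0.123 CPM depending on the library, and reads placed in several genome positions were counted to no gene. Of the other 10 untested genes, Fbxl7 reached 11 counts in a library and Fbxo41 reached 5, while Fbxl13, Fbxo15, Fbxo24, Fbxo39, Fbxo40, Fbxo43, Fbxo47 and Fbxo48 had at most 4. Fbxo40 is a muscle gene and Fbxo43 acts in meiosis.

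The tested genes spanned a wide range of levels. Per kb of annotated exon, Skp1a, the adapter that every SCF ligase shares, was the most abundant at 9.08 CPM per kb over the 6 libraries (range 7.63 to 10.3). Fbxo31 followed at 6.14 CPM per kb, with a range of 4.49 to 9.67. Cul3 stood at 6.08 (range 4.83 to 7.97), Fbxo9 at 6.01 (range 4.91 to 7.18) and Cul1 at 5.36 CPM per kb (range 4.82 to 6.37). The ranges of the last 4 overlap, and that of Skp1a overlaps those of Fbxo31 and Cul3, so the order is not resolved beyond this spread. Rbx1, a RING subunit, had 3.22 CPM per kb. Among receptors with well-studied targets, Fbxw11 stood at 3.66 and its close relative Btrc, which with it targets beta-catenin and the NF-kB inhibitor, at 0.297 CPM per kb. Fbxl5, which senses iron, had 1.93 CPM per kb. Skp2, the receptor that drives the cell cycle by degrading CDK inhibitors, had the lowest mean of all 64 on this scale, at 0.0564 CPM per kb. Its range of 0.0139 to 0.0954 overlapped that of Fbxl2, at 0.0164 to 0.122. In summed counts Skp2 was not the lowest, with 19 in control and 74 in knockout against 22 and 45 for Fbxl2. Exon length was the union over annotated isoforms, so a gene with a long rare exon is set too low on this scale.

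**Figure D1:**
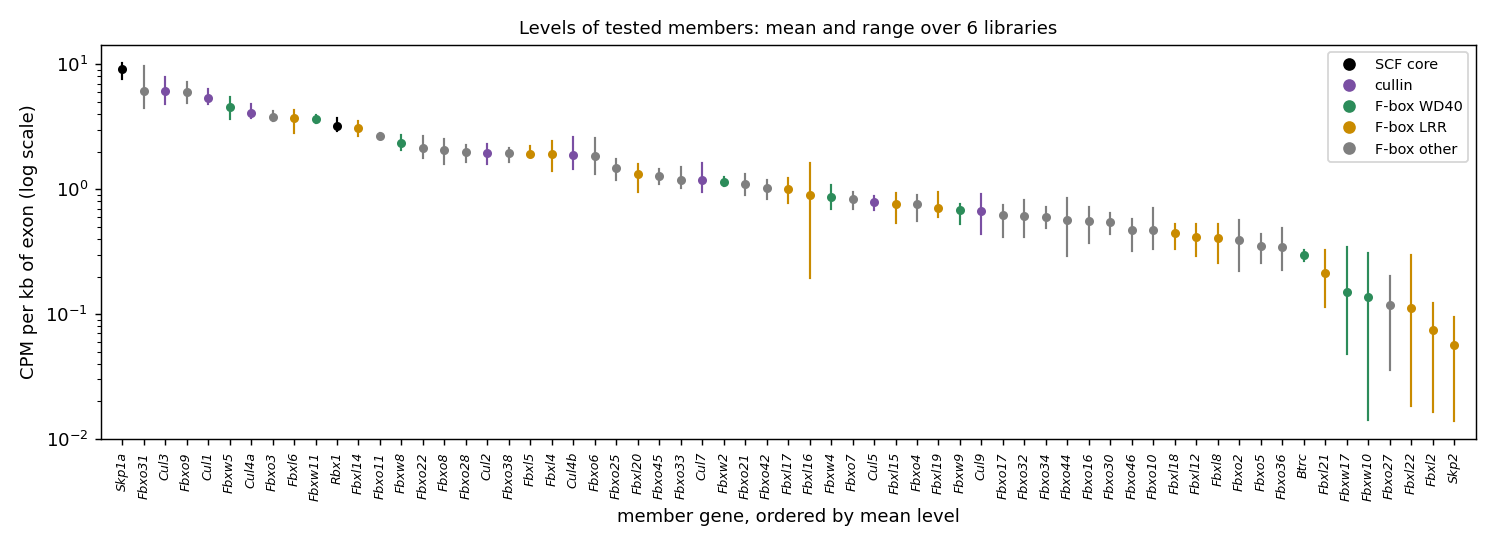
Mean level (point) and range over 6 libraries (line) of 63 tested genes, in CPM per kb of exon on a log axis, coloured by role and ordered by mean. Skp1a is highest at 9.08 CPM per kb and Skp2 lowest at 0.0564, and the ranges of Fbxl16 and Fbxw10 are among the widest.

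Few of these genes passed the test between knockout and control. Over 13115 genes tested by edgeR's quasi-likelihood F test, with p adjusted by Benjamini and Hochberg's method, 1 of the 64 passed an adjusted p of 0.05, Fbxw10, which fell. That is 1.56% of the members against 0.945% of all tested genes (0.465% higher and 0.480% lower). At an unadjusted p under 0.05 there were 10 members (15.6%) against 16.7% of all genes, 5 higher (8.45% of all genes) and 5 lower in knockout (8.27%). The replicate numbers of the labels were taken as pairs, since deviations of same-numbered libraries correlated in these data (0.63, 0.455 and 0.285). These correlations come from the same libraries that the blocked fit tests, so they do not establish a pairing. The labels do not state a pairing, and control replicate 3 also correlated with knockout replicate 2 (0.21). With that number as a block, 4 of 64 were called, or 6.25% against 5.99% of all genes (3.40% higher, 2.58% lower): Cul9 was higher, and Cul3, Fbxl16 and Fbxw10 were lower. DESeq2's Wald test called Cul3, Fbxl16 and Fbxw10 and, over all genes, 4.52%, of which 1.97% were higher and 2.55% lower. In bulk RNA, fewer cells of a type and less RNA per cell cannot be told apart. The share of members called in the blocked fit was near that of all genes, and the unblocked share is 1 gene. The median log2 fold change was -0.04 over the 64 genes and 0.02 over all genes. An estimate of at least 2-fold either way was found in 6 of the 64 and in 943 of all 13115 tested genes. In 17 of 64 genes (26.6%) the groups did not overlap, against 22.9% of all tested genes. Of these 7 were higher (10.9%, against 12.0% of all genes) and 10 lower (15.6%, against 10.9%).

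**Figure D2:**
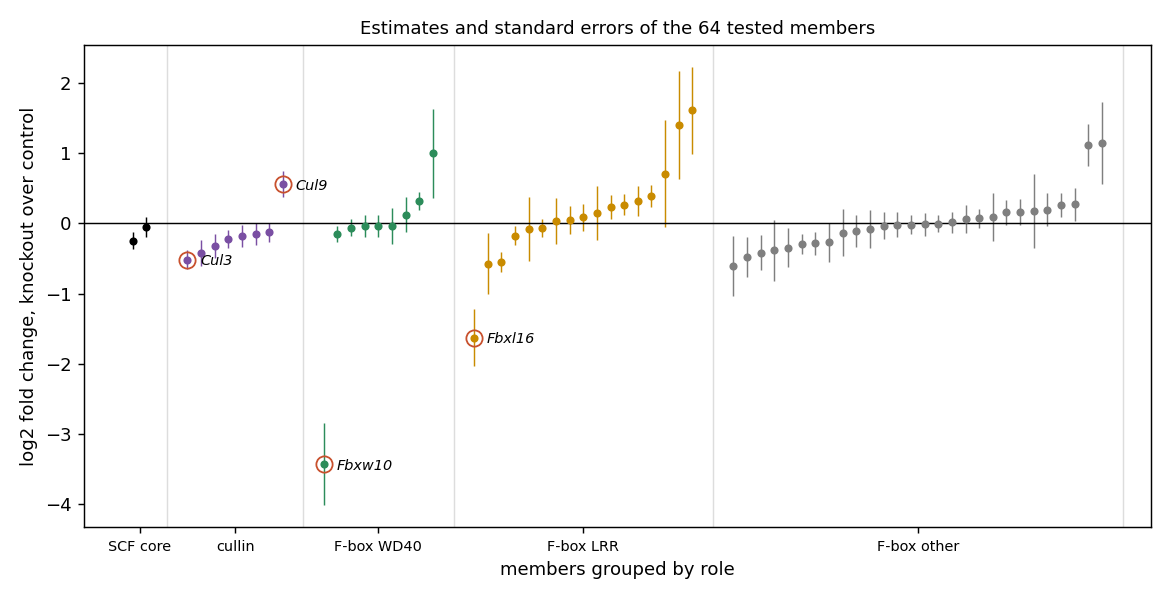
Log2 fold change of knockout over control (point) and its standard error (bar) in edgeR's fit without the block, for 64 genes grouped by role, with the 4 genes called in the blocked fit circled in red. Fbxw10 lies at -3.43 and Fbxl16 at -1.63, 7 of the 8 cullins lie below 0, and most other genes lie within 1 of 0.

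The direction of small changes depends on how the libraries are scaled. Scaling by library totals instead moved the median of all genes up by 0.41 on the log2 scale and the median of the members to 0.39. Under that scaling 5 members were called, 4 higher (Fbxw5, Fbxo44 and Cul9 among them) and Fbxw10 lower, where 11.6% of all genes were called, 11.0% higher and 0.587% lower. Without that change of scaling the calls over all genes split 61 higher to 63 lower, and with it 1442 to 77. A change is therefore read here against the median of all genes.

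The sequence before the transcription start is shown for the 4 members called in the blocked fit. Only Fbxw10 among them was also called in edgeR's fit without the block. RefSeq windows were found for 66 of the 88 genes by symbol, and the 250 bases upstream of the start are printed 5′ to 3′ on the gene's strand from build GRCm38.p6. They are chr1:80340691-80340940 on the minus strand for Cul3, chr17:46546389-46546638 on the minus strand for Cul9, chr17:25808211-25808460 on the plus strand for Fbxl16 and chr11:62846873-62847122 on the plus strand for Fbxw10. Capitals mark any match to the GC box (GGGCGG), the CCAAT box (CCAAT) or the TATA box (TATAAA), searched on both strands.
Cul3: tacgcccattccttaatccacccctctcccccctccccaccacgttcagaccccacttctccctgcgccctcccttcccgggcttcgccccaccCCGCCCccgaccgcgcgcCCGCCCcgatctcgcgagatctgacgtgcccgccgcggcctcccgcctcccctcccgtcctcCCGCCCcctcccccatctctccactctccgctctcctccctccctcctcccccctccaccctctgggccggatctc
Cul9: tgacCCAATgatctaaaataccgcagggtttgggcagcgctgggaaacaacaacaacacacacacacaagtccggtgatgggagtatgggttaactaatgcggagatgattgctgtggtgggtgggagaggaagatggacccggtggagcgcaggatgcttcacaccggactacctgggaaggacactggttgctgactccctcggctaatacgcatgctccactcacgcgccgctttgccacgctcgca
Fbxl16: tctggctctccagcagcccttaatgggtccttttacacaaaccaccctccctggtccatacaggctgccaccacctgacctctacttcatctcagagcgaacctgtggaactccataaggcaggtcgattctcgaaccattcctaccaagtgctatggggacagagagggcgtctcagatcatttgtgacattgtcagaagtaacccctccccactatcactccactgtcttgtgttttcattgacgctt
Fbxw10: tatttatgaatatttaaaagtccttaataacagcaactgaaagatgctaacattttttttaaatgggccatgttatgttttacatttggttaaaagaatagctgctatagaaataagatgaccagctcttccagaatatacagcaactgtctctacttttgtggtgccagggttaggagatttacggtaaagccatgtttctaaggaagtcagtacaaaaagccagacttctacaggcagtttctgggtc
Cul3 has 3 GC boxes and 23 CpG dinucleotides in this window. Cul9 has 1 CCAAT box and 14 CpG, while Fbxl16 has 5 CpG, Fbxw10 has 1 CpG, and neither holds any of the 3 motifs. Over all 32851 windows of this length, 32.7% hold a GC box, 33.8% a CCAAT box and 12.4% a TATA box, and the median holds 6 CpG. Among these 4 windows the 2 richest in CpG belong to the cullins, and the poorest to Fbxw10. The windows of other members are not shown, and a relation of CpG to role or fold change was not tested. A match is a run of letters and not a shown site.

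Neither core subunit of the SCF ligase passed the test. Skp1a stood at 21.01, 22.8 and 21.6 CPM over the controls and at 16.9, 18.6 and 19.6 CPM over the knockouts. All 3 knockouts lay below all 3 controls, but the log2 fold change of -0.25 (SE 0.12) did not pass (adjusted p 0.351, edgeR). Rbx1 had 13.7, 17.0 and 14.0 CPM across the controls and 13.3, 16.1 and 13.7 across the knockouts, and the groups overlapped (log2 fold change -0.05, SE 0.14). In both groups replicate 2 was the highest. Cul1, the SCF scaffold, read 20.7, 21.5 and 25.7 CPM in its controls and 19.5, 21.1 and 21.5 CPM in its knockouts, again overlapping, with a log2 fold change of -0.13 (SE 0.13).

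The cullins other than Cul9 all had lower estimates in knockout. Cul3, which assembles ligases with BTB receptors such as KEAP1 and SPOP, stood at 31.9, 34.0 and 38.8 CPM over the controls and at 23.6, 23.5 and 26.0 CPM over the knockouts. The lowest control lay well above the highest knockout. The control mean was 34.9 CPM ± 3.55 (SD, n = 3), the knockout mean was 24.4 CPM ± 1.39, and the log2 fold change was -0.52 (SE 0.13). In edgeR's quasi-likelihood test the adjusted p was 0.110, and with the replicate block it was 0.0406. Within the numbered pairs the log2 difference was -0.43, -0.53 and -0.58. Cul3 lies on chromosome 1 with 16 protein-coding RefSeq genes between it and Trip12 in GRCm38. Without control replicate 1 it was also called unblocked (adjusted p 0.0462), and without any 1 of the 3 pairs the blocked call was lost (adjusted p 0.0729, 0.300 and 0.0852).

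Cul9 rose in the blocked fit, the only cullin with a higher estimate. It encodes a large cullin, also known as PARC, that binds p53 in the cytoplasm. It had 6.84, 7.80 and 5.38 CPM across the controls and 10.00, 11.2 and 8.13 across the knockouts. Every knockout lay above every control, and the pairs gave differences of 0.54, 0.52 and 0.59. On the log2 scale knockout exceeded control by 0.55 (SE 0.18), and edgeR's adjusted p was 0.191 without and 0.0460 with the block. Without any 1 of the pairs the blocked adjusted p was 0.118, 0.285 or 0.103.

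The remaining cullins did not pass in either fit. Cul4a, a DDB1-binding scaffold, read 26.0, 28.2 and 30.7 CPM in its controls and 23.9, 24.5 and 24.2 CPM in its knockouts, with no overlap and a log2 fold change of -0.22 (SE 0.12). Its X-linked relative Cul4b stood at 8.32, 6.49 and 10.1 CPM over the controls and at 5.60, 6.39 and 6.54 CPM over the knockouts, where the groups overlapped through control replicate 2. Cul7, which pairs with FBXW8, had 8.63, 8.54 and 11.96 CPM across the controls and 6.996, 8.11 and 8.18 across the knockouts, with the groups apart by a small margin. For Cul4b the log2 fold change was -0.43 (SE 0.18; edgeR adjusted p 0.288) and for Cul7 -0.32 (SE 0.17; adjusted p 0.386). Cul2 read 7.50, 9.65 and 8.83 CPM in its controls and 6.67, 8.59 and 7.70 CPM in its knockouts. Cul5 stood at 6.65, 6.66 and 7.20 CPM over the controls and at 5.55, 7.08 and 5.79 CPM over the knockouts. Both overlapped, with log2 fold changes of -0.18 (SE 0.16) for Cul2 and -0.15 (SE 0.15) for Cul5. Over the 8 cullins the median log2 fold change was -0.20 against 0.02 for all genes. With library totals it was 0.22 against 0.43, and 6 of the 8 estimates, all but Cul3 and Cul4b, then lay above 0.

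**Figure D3:**
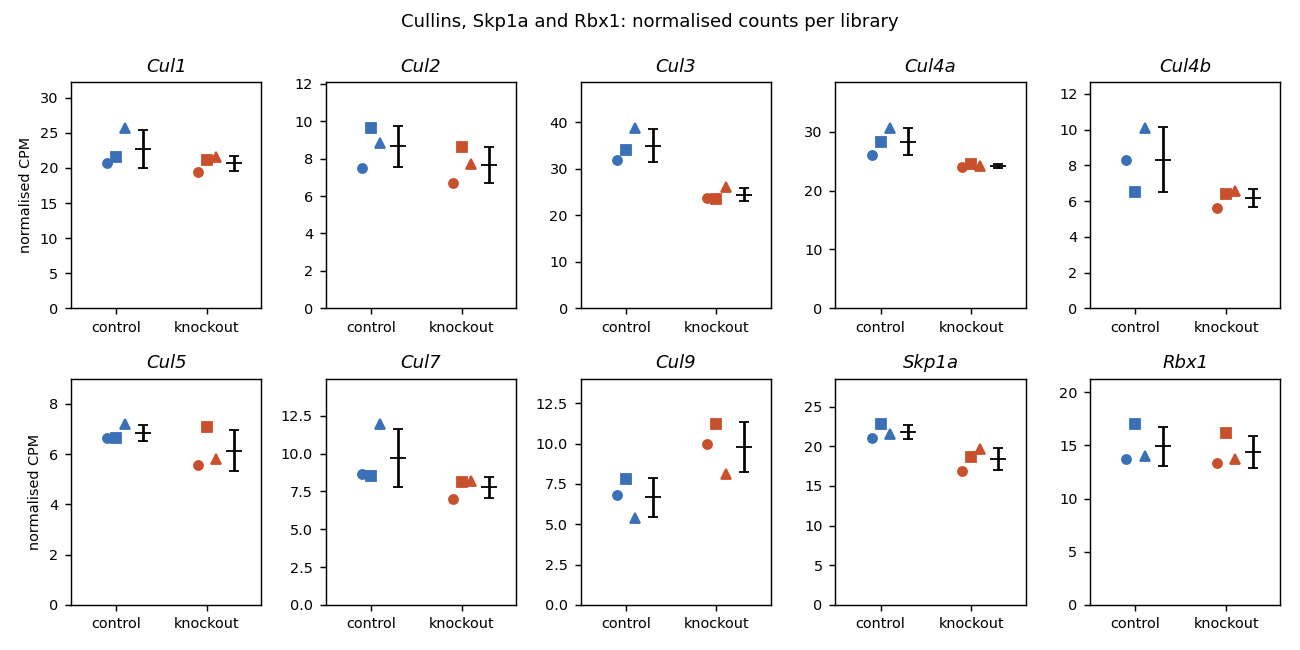
Normalised CPM of the 8 cullins, Skp1a and Rbx1 in each library (circle, square and triangle for replicates 1, 2 and 3), with the mean and SD of each group beside the points. Cul3 runs from 31.9 to 38.8 CPM in control and from 23.5 to 26.0 CPM in knockout, and Cul9 is the only cullin whose knockouts all lie above its controls.

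Ratios of counts within a library do not depend on scaling, and 5 were computed after the values were seen. Cul3 per Cul1 was 1.54, 1.58 and 1.51 in control and 1.22, 1.12 and 1.21 in knockout, with means of 1.54 ± 0.0364 and 1.18 ± 0.0550 (SD, n = 3). Cul9 per Cul7 was 0.792, 0.914 and 0.450 in control and 1.43, 1.38 and 0.993 in knockout. Cul9 per Cul3 was 0.214, 0.230 and 0.139 in control and 0.423, 0.477 and 0.313 in knockout. These 3 did not overlap between the groups, which the choice of a higher against a lower gene fixes in part, so nothing is read from it and no test is given. Skp1a per Cul1 overlapped, at 0.839 to 1.06 over the controls and 0.866 to 0.913 over the knockouts, and so did Fbxo31 per Fbxo9, at 1.41 to 2.42 and 1.47 to 1.92. The summed level of all 8 cullins was 126 CPM ± 11.4 (SD, n = 3) over the controls and 107 CPM ± 4.47 over the knockouts.

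**Figure D4:**
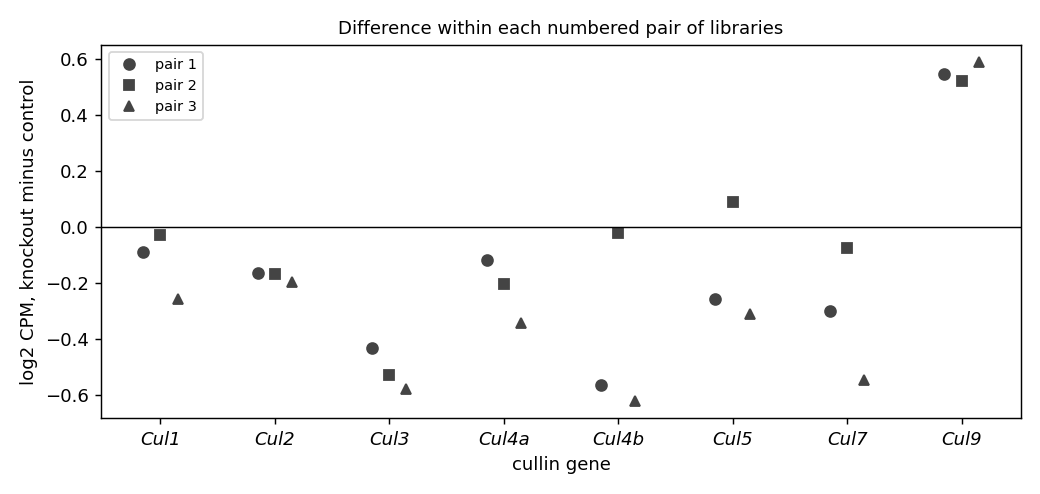
Difference in log2 CPM (knockout minus control) within each numbered pair of libraries, for the 8 cullins, with circle, square and triangle for pairs 1, 2 and 3. Cul3 lies between -0.58 and -0.43 and Cul9 between 0.52 and 0.59 in all 3 pairs, while Cul5 lies on both sides of 0.

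Among the WD40 receptors, Fbxw10 fell to near the detection floor. It drew 37, 30 and 18 counts from the controls and 5, 2 and 3 from the knockouts, or 1.17, 1.23 and 0.654 CPM against 0.134, 0.0571 and 0.0805 CPM. The lowest control was several times the highest knockout. The ratio of control to knockout over the summed 85 and 10 counts was 11.2, with an exact 95% interval of 5.77 to 24.1 that covers counting error only. The fitted log2 fold change was -3.43 (SE 0.59), and edgeR's adjusted p was 0.0370 without and 0.00828 with the block. Its estimate stayed between -3.81 and -3.20 without any 1 library, but it was called only without control replicate 1, and the other adjusted p ran from 0.0837 to 0.202. Fbxw10 shares exon bases with Trim16 on the same strand. Trim16 had 8.44, 7.68 and 16.8 CPM across the controls and 5.82, 7.51 and 10.9 across the knockouts, overlapping, with a log2 fold change of -0.44.

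The other 8 tested WD40 receptors were not called in either fit. Fbxw5, which bridges to CUL4 as well as CUL1, read 13.5, 12.7 and 11.2 CPM in its controls and 14.8, 16.7 and 14.97 CPM in its knockouts, with no overlap and a log2 fold change of 0.31 (SE 0.13; edgeR adjusted p 0.272). Fbxw11 stood at 16.6, 16.3 and 17.1 CPM over the controls and at 15.7, 14.8 and 14.6 CPM over the knockouts. It too was apart between groups, at a log2 fold change of -0.15 (SE 0.11). Btrc overlapped, at 4.54, 5.50 and 5.27 CPM over the controls and 4.80, 4.77 and 5.28 CPM over the knockouts. Fbxw8, the partner of CUL7, also overlapped, at 13.2 CPM ± 1.76 (SD, n = 3) and 12.9 CPM ± 1.79, and so was Fbxw2 at 11.1 CPM ± 0.666 and 10.6 CPM ± 0.412. Fbxw17 was low and variable, at 0.599, 0.370 and 0.182 CPM over the controls and 1.31, 0.600 and 0.402 CPM over the knockouts. In both groups it was highest in replicate 1 and lowest in replicate 3. Fbxw4 and Fbxw9 overlapped, at 2.21 to 3.20 CPM and 2.02 to 2.51 CPM over the controls and 2.54 to 3.43 CPM and 1.80 to 2.57 CPM over the knockouts.

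Among 17 tested leucine-rich repeat receptors, Fbxl16 had the largest fall in estimate. It had 4.79, 5.83 and 4.07 CPM across the controls and 1.72, 2.34 and 0.697 across the knockouts. The groups were well apart, and knockout replicate 3 was the lowest. The control mean was 4.90 CPM ± 0.886 (SD, n = 3), the knockout mean was 1.59 CPM ± 0.830, and the log2 fold change was -1.63 (SE 0.40). The adjusted p was 0.110 in edgeR's test and 0.00435 with the block, and DESeq2's Wald test gave 0.00515. The estimate ran from -2.02 without knockout replicate 2 to -1.27 without knockout replicate 3. Without pair 2 the blocked adjusted p was 0.0801.

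Fbxl4, a mitochondrial outer membrane F-box protein that restrains mitophagy, also had lower values in every knockout. It read 8.10, 8.50 and 9.16 CPM in its controls and 5.28, 6.34 and 6.01 CPM in its knockouts, with no overlap. Its log2 fold change was -0.55 (SE 0.14). It passed in neither fit, at an edgeR adjusted p of 0.116 without and 0.0563 with the block. Fbxl18 stood at 5.64, 4.27 and 5.02 CPM over the controls and at 6.17, 6.85 and 6.57 CPM over the knockouts, with no overlap and a log2 fold change of 0.39 (SE 0.16; edgeR adjusted p 0.269). Fbxl5 overlapped, at 19.2 CPM ± 2.13 (SD, n = 3) and 18.3 CPM ± 0.711. Fbxl12 shares exon bases with Ubl5 on the opposite strand, and its 1.48 to 2.68 CPM miss any read that fell on both.

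Of the 17 tested leucine-rich repeat receptors 5 had groups apart (29.4%, against 22.9% of all tested genes), namely Fbxl16, Fbxl4, Fbxl18, Skp2 and Fbxl19. Fbxl19 is a receptor with a CXXC domain that binds CpG islands, and its knockouts lay above its controls by a narrow gap. It read 2.71, 2.83 and 3.02 CPM in its controls and 4.32, 3.28 and 3.03 CPM in its knockouts. Fbxl20, a receptor found at synapses, overlapped at 11.46 to 16.9 CPM and 15.7 to 19.2 CPM, as did Fbxl14, which targets SNAI1, at 8.59 to 10.4 CPM and 7.91 to 9.42 CPM. Fbxl6 lay at 6.52 to 9.20 CPM and 6.06 to 9.28 CPM, and Fbxl17, which inspects BTB dimers, at 4.31 to 6.24 CPM and 5.00 to 6.76 CPM. Fbxl22, a gene of the muscle sarcomere, stood at 0.315, 0.329 and 0.0727 CPM over the controls and at 1.18, 0.485 and 0.241 CPM over the knockouts. Its replicate 3 was the lowest in both groups, and replicate 1 of the knockouts was far above the rest. Over the class, 11 estimates were higher and 6 lower, with a median log2 fold change of 0.09 against 0.02 for all genes.

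Skp2 had the highest estimate of all the members, from very few counts. It drew 13, 3 and 3 counts from the controls and 25, 21 and 28 from the knockouts, or 0.410, 0.123 and 0.109 CPM against 0.670, 0.600 and 0.751 CPM. The groups did not overlap, and control replicate 1 stood above the other controls. The ratio of knockout to control over the summed 19 and 74 counts was 2.97, with an exact 95% counting interval of 1.78 to 5.21. The log2 fold change of 1.61 (SE 0.62) did not pass (adjusted p 0.248 in edgeR's test, 0.125 with the block) and was 0.71 with sex as a covariate. The 6 markers of dividing cells summed to 18.6, 10.4 and 10.3 CPM over the controls and to 14.96, 10.5 and 14.0 CPM over the knockouts. Their part, and that of the leukocyte markers, in the Skp2 level was not tested.

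None of the 28 tested Fbxo genes was called in either fit, over log2 fold changes from -0.61 to 1.14. Fbxo44 came nearest. It read 0.882, 1.23 and 1.16 CPM in its controls and 2.49, 2.57 and 2.01 CPM in its knockouts, well apart, and its log2 fold change was 1.11 (SE 0.30; edgeR adjusted p 0.126 without and 0.0510 with the block). Fbxo44 belongs to a subfamily with a shared F-box-associated domain whose members Fbxo2 and Fbxo6 recognise N-glycans on misfolded proteins, and these 3 lie on chromosome 4. Fbxo6 did not share the pattern, at 3.24, 3.78 and 5.63 CPM over the controls and 4.34, 4.68 and 2.92 CPM over the knockouts. Fbxo2 was low throughout, at 0.284 to 0.654 CPM in control and 0.402 to 0.724 CPM in knockout. Of the other members of the subfamily, which lie on chromosome 7, Fbxo17 overlapped between groups at 1.04 to 1.86 CPM. Fbxo27 stood at 0.315, 0.247 and 0.109 CPM over the controls and at 0.456, 0.428 and 0.617 CPM over the knockouts, apart but thin, with a log2 fold change of 1.14 (SE 0.58).

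Fbxo31, for which cyclin D1 is a reported target, was uneven among the controls. It had 24.6, 38.0 and 53.0 CPM in control replicates 1 to 3, a spread of more than 2-fold, and 29.2, 29.4 and 27.9 CPM in knockout replicates 1 to 3. The knockouts were tight and lay inside the control range, and the fitted log2 fold change was -0.42 (SE 0.25; edgeR adjusted p 0.456). Fbxo9 had 17.4, 22.3 and 21.9 CPM across the controls and 15.2, 19.95 and 15.2 across the knockouts. Fbxo8 read 12.3, 11.1 and 13.9 CPM in its controls and 8.74, 11.02 and 10.6 CPM in its knockouts. The groups overlapped for Fbxo9 and were apart by a narrow gap, knockouts lower, for Fbxo8. Fbxo3 differed little between groups, at 27.7 CPM ± 1.94 (SD, n = 3) and 27.3 CPM ± 2.72, a log2 fold change of -0.02 (SE 0.13). So did Fbxo11, at 11.9 CPM ± 0.364 and 11.8 CPM ± 0.677.

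Fbxo28 and Fbxo38 also varied little, at 8.71 to 11.9 CPM and 9.41 to 12.1 CPM over the controls and 10.2 to 10.8 CPM and 10.99 to 11.6 CPM over the knockouts. Fbxo7, known for its mutation in familial parkinsonism, overlapped at 4.32 to 5.92 CPM and 4.80 to 5.63 CPM, and Fbxo22 at 4.54 to 5.02 CPM and 4.26 to 6.37 CPM. Fbxo42, a receptor for p53, had 4.91 to 6.94 CPM across the controls and 5.62 to 6.996 across the knockouts, and Fbxo45, which works with the RING protein MYCBP2, had 4.56 to 6.03 and 4.99 to 5.47 CPM. None of these 6 genes passed in either fit. Over all 28 Fbxo genes 12 estimates were higher and 16 lower, with a median log2 fold change of -0.02. Groups were apart in 4 (14.3%), 2 in each direction, against 22.9% of all tested genes.

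Fbxo36 is the immediate neighbour of Trip12, with no protein-coding gene between them in the RefSeq annotation of chromosome 1. It shares no exon bases with Trip12. It stood at 0.756, 0.863 and 1.05 CPM over the controls and at 0.724, 0.542 and 0.483 CPM over the knockouts, from 18 to 29 counts a library. The groups did not overlap, but the gap between control replicate 1 and knockout replicate 1 was small. The fitted log2 fold change was -0.61 (SE 0.42; edgeR adjusted p 0.527 without and 0.457 with the block). Fbxo32, the muscle atrophy gene atrogin-1, had 2.92 to 4.29 CPM in control and 3.75 to 5.74 CPM in knockout, overlapping. Fbxo5, an inhibitor of the anaphase-promoting complex that is made in dividing cells, had 0.727 to 0.882 CPM in control and 0.510 to 0.804 CPM in knockout, overlapping as well.

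**Figure D5:**
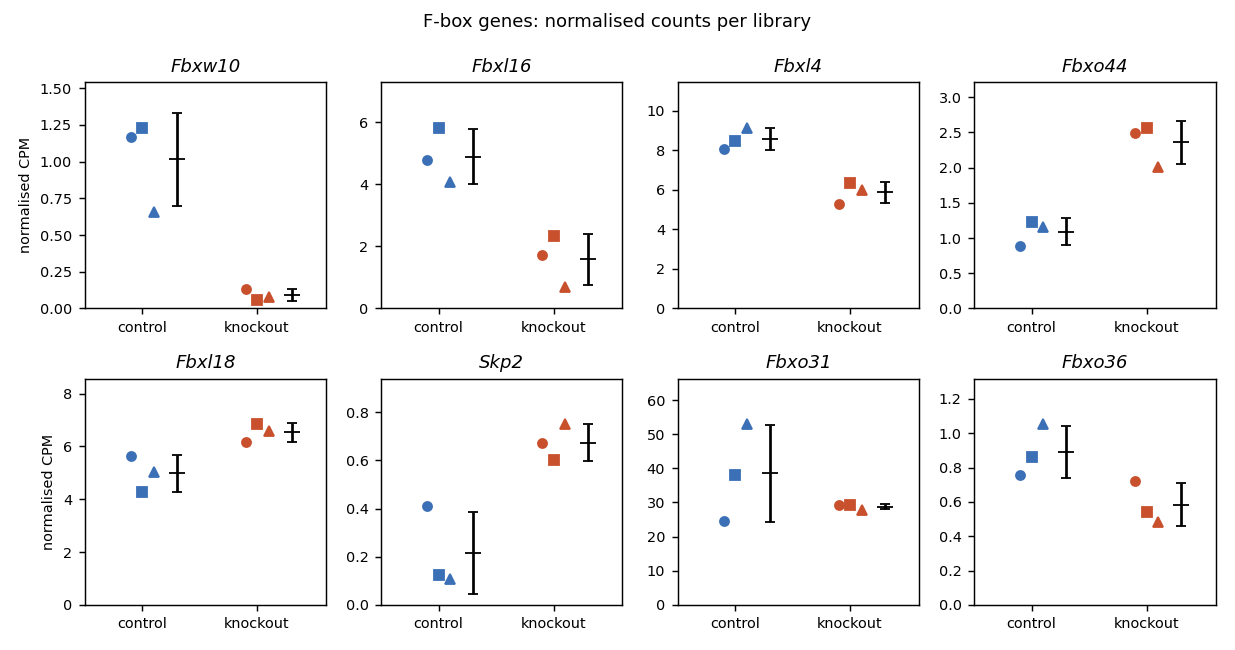
Normalised CPM of 8 F-box genes in each library (circle, square and triangle for replicates 1, 2 and 3), with the mean and SD of each group beside the points. The groups are apart for Fbxw10, Fbxl16, Fbxl4, Fbxo44, Fbxl18, Skp2 and Fbxo36, and overlap for Fbxo31, whose controls run from 24.6 to 53.0 CPM.

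The partners of these ligases were followed through 7 lists with 135 genes, of which 129 were tested. None was called in edgeR's test without the block, with 17 at an unadjusted p under 0.05, 6 higher and 11 lower, or 13.2% against 16.7% of all genes. With the block 4 were called (3.10%, against 5.99% of all genes). DESeq2's Wald test called 2, Klhl2 and Asb13, both lower, where it called 4.52% of all genes. The median log2 fold change over the 129 was -0.07, against 0.02 for all genes. The 4 genes called with the block are on the lists of receptors and adapters for cullins other than CUL1. Those lists hold most of the 129 tested genes, so nothing is read from where the calls fall. Cish, a SOCS-box inhibitor of cytokine signalling, had 2.30, 3.62 and 4.87 CPM across the controls and 6.996, 4.97 and 9.04 across the knockouts, for a log2 fold change of 0.96 (SE 0.31) whose adjusted p was 0.0266 with the block. Dcaf15, a DDB1-binding receptor, read 3.15, 2.38 and 2.00 CPM in its controls and 5.31, 3.797 and 4.29 CPM in its knockouts, with no overlap. Asb13, a SOCS-box receptor, stood at 15.8, 18.7 and 16.9 CPM over the controls and at 10.6, 12.1 and 10.9 CPM over the knockouts, a log2 fold change of -0.61 (SE 0.13). Klhl2, a BTB receptor that joins CUL3, had 6.21, 5.83 and 6.11 CPM across the controls and 3.97, 3.57 and 3.94 across the knockouts, a log2 fold change of -0.66 (SE 0.15). The groups were far apart for Asb13 and Klhl2, and for Cish they were apart only narrowly. The blocked adjusted p were 0.0416 for Dcaf15, 0.0202 for Asb13 and 0.0473 for Klhl2, and without the block they were 0.142, 0.0671 and 0.0803, with 0.188 for Cish.

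By class, 1 of 32 BTB adapters of CUL3 was called with the block, lower, and their median log2 fold change was 0.07. Of 25 genes on the DDB1 and DCAF list, which also holds the SOCS-box gene Wsb1, 1 was called, higher (median -0.07). Among 31 tested genes on the elongin, VHL and SOCS-box list 1 was called higher and 1 lower (median -0.14). None of the 14 genes of the neddylation cycle was called in either fit, with a median of -0.20 and a range from -0.52 to 0.55. None of the 10 subunits of the COP9 signalosome was called either, over a range from -0.44 to 0.15, and 3 of them were lower without overlap, where 10.9% of all genes were. The 13 SCF cofactors and conjugating enzymes (median -0.16) and the 4 other tested F-box genes (median 0.25) also held none. With library totals each of these medians lay above 0.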

How the data were processed

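Whole-number counts per gene were deposited for 6 libraries. STAR 2.7.10a and mouse build GRCm39 are named in the submitters' processing notes, and the annotation is not given in the sources used here. Per the labels' protocols, polyadenylated RNA was selected. The deposited counts placed without regard to strand were used. Rows for unmapped, multiply placed, ambiguous and out-of-gene reads, together 36.9% to 45.7% of reads, were left out of library sizes and tests. GENCODE M21 (GRCm38) gave symbols, gene classes, exon lengths and overlaps for 52133 of 55414 identifiers (94.1%), which held at least 99.8% of gene counts. Its exon lengths divided the GRCm39 counts in the levels per kb, and its coordinates were not otherwise combined with the counts.

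All genes passing filterByExpr (13115) were fitted with edgeR 4.0.16 in R 4.3.3 (TMM, robust quasi-likelihood F test, Benjamini-Hochberg adjustment, calls at an adjusted p under 0.05). A standard error is the log2 fold change over the square root of F. DESeq2 1.42.0 and limma 3.58.1 were alternatives, and the fit was tested on simulated data. Every pair of libraries differed beyond sampling noise (chi-square per degree of freedom at least 26.3). The labels call the libraries biological replicates and name no shared animal, batch or day, so p-values measure the spread between these libraries. Deviations of same-numbered libraries correlated at 0.63, 0.455 and 0.285, and the numbers were taken as pairs. The correlations come from the libraries under test and do not establish a pairing. Intervals cover counting error only.

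The members and lists were chosen with earlier results of these data known. Named members were Skp1a, Rbx1, the cullins, Skp2 and Btrc, every called member, the 3 largest rises and falls in estimate among members of at least 1 CPM without overlap, the 5 highest per kb, and partners called in either fit. Some items are not reported here. Other members named were chosen after their values were seen.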

Additional observations from a re-analysis of the deposited data

How the results depend on the processing

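Of 359 values of single named members over the alternatives, 321 kept their direction and their side of the threshold, 12 passed only under the alternative, 8 lost the call of the unblocked TMM fit and 18 changed sign. Members called numbered 1 with RLE size factors (0.900% of all genes), with enzymes left out of library sizes (0.907%) and without robust estimation (0.762%). They numbered 5 with library totals (11.6% of all genes), 2 without the filter (3.30%) and 3 by DESeq2 (4.52%). At 10 or more counts in every library 0 of 57 were called (1.89% of all genes), and Fbxw10 was not among the genes tested. None was called by limma-voom (0.640% of all genes) or with sex as a covariate (0.160%). Partner genes called numbered 0 in the unblocked fit (0.945% of all genes) and 16 of 129 with library totals (11.6%). They numbered 2 without the filter (3.30%), 1 at 10 or more counts (1.89%) and 2 by DESeq2 (4.52%). The median of the members was 0.39 with library totals and 0.059 with sex as a covariate. Trip12 lost its call with library totals (-0.49) and with sex (-1.05). Members without overlap numbered 34 with library totals, a scaling that moved the median of all genes up by 0.41. The share of all genes without overlap under it is not given here, so nothing is read from this count.

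With the replicate block, 4 members and 4 partner genes were called, where 5.99% of all genes were. Alternatives added after the data were seen left out 1 pair from the blocked fit: 2 members were called without pair 1 (3.09% of all genes), 0 without pair 2 (0.729%) and 3 without pair 3 (6.11%), with 2 partner genes called in the last. The median was -0.12 without pair 1. Without pair 2, Trip12 at -1.02 lost its call and Btrc turned to 0.041.

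Without any 1 library, 0 to 2 members and 0 to 2 partner genes were called, the 2 in each case without control replicate 1, where 3.41% of all genes were called. The median of the members was lowest, at -0.13, when control replicate 1 was left out, and highest, at 0.027, when control replicate 3 was. Trip12 ran from -0.98 to -0.82 and was called only without control replicate 1. Between 21 and 27 members had no overlap, where fewer libraries leave fewer ways to overlap. The share of all genes is not given for these fits, so nothing is read from these counts. Rbx1 ran from -0.14 to 0.053, turning without control replicate 2 and at 0.0019 without knockout replicate 1, and Btrc from -0.15 to 0.013.

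Library totals turned Skp1a to 0.17, Rbx1 to 0.37, Cul1 to 0.29, Cul2 to 0.25, Cul4a to 0.20, Cul5 to 0.26, Cul7 to 0.10, Btrc to 0.38, Fbxo31 to 0.034 and Fbxo9 to 0.14, which the shift of all genes by 0.41 contains. Sex as a covariate rests on 1 male control and turned Rbx1 to 0.071, Cul2 to 0.030, Btrc to 0.13 and Fbxo31 to 0.23. The cause of the other changes was not tested. Skp2, Fbxo27 and Fbxo36 had at most 29 counts a library, so counting error alone limits what these libraries can show of them.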
